A study of Homo sapiens with 4 samples.

Results

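The transcripts described here encode the proteins of the cytosolic ribosome, and the measurement was how often poly(PR) was crosslinked to them in human cells. Protein-coding genes whose names begin with RPL or RPS and a digit were taken, together with RPSA, RPLP0, RPLP1 and RPLP2, while S6 kinase genes, RPS19BP genes and named paralogs were left out. This gave 82 of 20046 protein-coding genes. The 3 read-through genes among them were set aside, and sums were made over the other 79, of which 46 belong to the large and 33 to the small subunit. The 2 Y-linked members are counted but not described singly, so ranges and counts over single genes cover 77.

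All libraries came from HEK293T, a human embryonic kidney line that carries the SV40 large T antigen, after transient transfection with PR100-FLAG, a plasmid for 100 proline-arginine repeats with a triple FLAG tag. Poly(PR) is a dipeptide repeat protein made from the expanded C9orf72 repeat of ALS and frontotemporal dementia. Expression was induced with doxycycline at 150 ng per ml for 24 h, the cells were irradiated at 254 nm with 160 mJ per cm2, and RNA bound to the tagged protein was read by iiCLIP, an improved individual-nucleotide crosslinking and immunoprecipitation method. There were 4 libraries of this 1 group: replicates 1 to 3, whose complexes were purified by SDS-PAGE, and replicate 4, whose complexes were purified on beads. No control library was used here, so nothing below compares poly(PR) with its absence. The protein was overexpressed, and whether the libraries came from separate cultures was not stated, so the spread may be technical.

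Each unique cDNA, counted with a random barcode, is called a crosslink event and was placed by the authors on the nucleotide before the read. The libraries held 334057, 604816, 125694 and 179636 events in replicates 1 to 4, or 1244203 together. Replicate 3 was the shallowest and had a random barcode of 5 instead of 7 nt. Values below are events, or CPM, the events scaled to a common library size of 1e+06, and levels are compared between genes only per kb of length. RNA abundance was not measured in these libraries, so a high count can reflect an abundant RNA as well as frequent contact, and these cannot be told apart. Differences over the 4 libraries were tested by flipping their signs in all ways (an exact permutation test, two-sided), which cannot give a p below 0.13 (rounded), and no comparison could pass 0.05.

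Ribosomal proteins form the body of the ribosome around its RNA and are made in near-equal amounts. Their mRNAs are short, abundant and begin with an oligopyrimidine tract through which growth signals control their translation. Many of their genes also carry small nucleolar RNAs (snoRNAs) in their introns. Box C/D snoRNAs mostly guide 2′-O-methylation of ribosomal RNA and box H/ACA snoRNAs its pseudouridylation, and both kinds are released from the spliced intron.

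Most poly(PR) crosslinks on these genes fell in the coding sequence of the mRNA or in the snoRNAs inside the introns. To show what was contacted, the coding sites are printed as RNA-strand DNA letters from GRCh38. They surround the position with the most events in the strongest cluster of each of 7 genes with strong coding clusters. Each stretch runs from 5 nt before the crosslinked position to 24 nt after it, so the sixth letter is the crosslinked one, and capitals mark the motif GANGA, where N stood for A, G or C and overlapping copies were all marked. RPS6 lies at chr9:19376539-19376568 in exon 5, RPS24 at chr10:78037189-78037218 in exon 4 and RPL19 at chr17:39203084-39203113 in exon 4. RPL6 lies at chr12:112405890-112405919 in exon 6 and RPL4 at chr15:66499473-66499502 in exon 10. RPL3 lies at chr22:39317515-39317544 in exon 3 and RPL35 at chr9:124857916-124857945 in exon 4. RPS24 and RPL19 are on the plus strand and the others on the minus strand.
RPS6: ctGAAGAagcagcgtaccaagaaaaataaa
RPS24: ttcagcatggcctgtatgaGAAGAaaaaga
RPL19: gaatctaaGAAGAtcgatcgccacatgtaa
RPL6: cttcaaGAAGAAGAagctgcggaagcccag
RPL4: gtgggaaaaaaggcagcagctaccaagaaa
RPL3: aacccctcgaggcctccggaccttcaagac
RPL35: gctgcggaagtacgcggtcaaggcctgagg

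The motif stood in 4 of these 7 stretches, against 17.3% of all 38614 windows of 30 nt in the members' coding sequences. The study drew GAAGA from its own PR100-FLAG data, so this count is no independent check of the motif. Single positions held few events, between 5 in RPL35 and 15 in RPL3, and each of these positions was empty in at least 1 library. The RPS6 position held 0, 0, 12 and 0 events in replicates 1 to 4 and the RPL6 position 0, 0, 11 and 1, so these 2 of the 4 stretches with the motif rested on replicate 3, the shallowest library. The RPL35 position had events in replicate 2 only. The clusters around them were broader: 103 events over chr9:19376507-19376650 in RPS6, 86 over chr10:78037191-78037297 in RPS24 and 80 over chr17:39202990-39203097 in RPL19.

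The snoRNA sites are printed because the members' clusters with the most events lay in snoRNAs. They surround the highest position of the 6 strongest snoRNA clusters, 1 for each snoRNA and with events just outside its ends counted. The host gene stands in brackets, and the capital is the nucleotide on which the events were placed. SNORD24 lies at chr9:133349410-133349439, SNORD36C at chr9:133350855-133350884, SNORD34 at chr19:49490922-49490951, SNORD21 at chr1:92837283-92837312 and SNORD102 at chr13:27255060-27255089, all on the plus strand. SNORD18B lies at chr15:66502045-66502074 on the minus strand.
SNORD24 (RPL7A): aagaaTatttgctatctgagagatggtgat
SNORD18B (RPL4): cacttAattggtccgtgtttctgaaacaca
SNORD36C (RPL7A): atggtTaagaatttcttcacctgaataaac
SNORD34 (RPL13A): gcaacTacctacattgtttgatcctcatga
SNORD21 (RPL5): tgagcTgctgaatgatgatatcccactaac
SNORD102 (RPL21): ctcgaGcttaatgatgactgttttttttga

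The marked SNORD18B position alone held 71 events, namely 13, 8, 10 and 40 in replicates 1 to 4. The SNORD21 position lay directly before the annotated 5′ end and held 44 events, with none in replicate 3. The SNORD102 position was the second nucleotide of the snoRNA and held 34 events, also with none in replicate 3.

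The members together held 7872 events, with 1677, 3267, 547 and 2381 in replicates 1 to 4. This was 0.502%, 0.540% and 0.435% of the SDS-PAGE libraries and 1.33% of the beads library, a mean of 0.701% ± 0.419 (SD, n = 4). The 3 SDS-PAGE libraries lay close together and the beads library stood above them, and 56 of 77 members had their highest CPM there. With 1 beads library this difference could not be tested, and the part of the purification in it was not tested.

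Coding sequence held 41.9% ± 4.72 of the members' events (SD, n = 4) and embedded snoRNAs 31.9% ± 5.95. Introns outside snoRNAs held 9.74% ± 5.09, exons of non-coding isoforms 7.37% ± 2.48, 5′ UTRs 5.13% ± 1.20 and 3′ UTRs 3.99% ± 1.58. In all other protein-coding genes the order was different, with 53.3% ± 12.1 in introns, 29.6% ± 10.1 in coding sequence, 9.94% ± 1.79 in 3′ UTRs and 0.472% ± 0.255 in snoRNAs.

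Mature mRNA, meaning coding sequence and UTRs, took 8.34 ± 10.3 percentage points more of the events in members than in other genes (exact sign-flip p = 0.25, n = 4). The difference was 17.1, 10.7 and 12.2 points in the SDS-PAGE libraries and fell to -6.58 in the beads library, so it had no common sign. It was 15.6 ± 7.67 points and positive in every library where each position was counted once, and 5.44 without replicate 1. Once snoRNA events were left out of both groups it was 32.3 ± 7.81 points, positive in every library (exact sign-flip p = 0.13, n = 4). Within mature mRNA the coding sequence held 82.1% ± 5.61 of the members' events and 68.4% ± 3.97 of the others', a difference of 13.6 ± 2.96 points that was positive in 4 of 4 libraries (exact sign-flip p = 0.13).

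Per length, the members' mRNAs were crosslinked far more densely than the average coding gene. Their exons held 21.4, 28.4, 19.4 and 63.9 CPM per kb in replicates 1 to 4, and the exons of all other coding genes 2.73, 3.77, 2.83 and 5.59. The values of these groups did not overlap. The log2 ratio was 3.04 ± 0.32 (SD, n = 4, exact sign-flip p = 0.13), or 8.25-fold. The coding sequence held 72.6 ± 48.4 CPM per kb, the 5′ UTRs 57.4 ± 24.4 and the 3′ UTRs 3.46 ± 1.38. The annotation gives some members long 3′ UTRs, 57450 nt in all against 40905 nt of coding sequence, and these lower the density over whole transcripts.

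**Figure D1:**
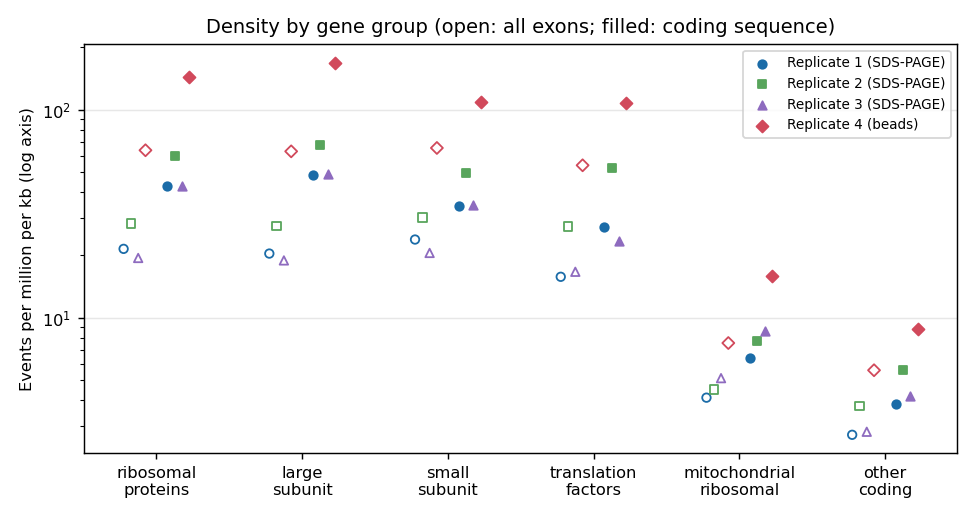
Crosslink events in CPM per kb, on a log axis, for gene groups in each of the 4 libraries; open symbols cover all exons of the canonical transcript and filled symbols the coding sequence alone. Ribosomal protein genes and translation factors lie together, above mitochondrial ribosomal protein genes and all other coding genes, and the beads library is highest in each group.

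The 78 nuclear genes for mitochondrial ribosomal proteins, which serve the organelle's own ribosome, held 5.33 ± 1.54 CPM per kb of exon. The cytosolic members stood 2.51 ± 0.49 above them on the log2 scale, or 5.69-fold, and above in 4 of 4 libraries (exact sign-flip p = 0.13). A list of 19 mRNAs of translation factors and other proteins such as NPM1 and HNRNPA1, many with the same 5′ oligopyrimidine start, held 28.5 ± 17.9 CPM per kb. The members' log2 ratio to that list was 0.24 ± 0.16 (exact sign-flip p = 0.13). It was 0.002 where only positions with a unique next 30 nt were used (exact sign-flip p = 1), 0.23 with a unique next 50 nt and 0.54 ± 0.30 over coding sequence alone (exact sign-flip p = 0.13 for both).

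The subunits were close. Large-subunit exons held 32.5 ± 20.8 CPM per kb and small-subunit exons 35.0 ± 20.7, a log2 ratio of -0.13 ± 0.07 (n = 4, exact sign-flip p = 0.13). Over coding sequence alone the direction turned, with 83.4 ± 57.5 CPM per kb for the large and 57.1 ± 35.5 for the small subunit, a log2 ratio of 0.51 ± 0.08 (exact sign-flip p = 0.13). The large-subunit genes carry 43499 nt of annotated 3′ UTR and the small-subunit genes 13951 nt.

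Members differed widely among themselves, from 3 events in RPS26 to 639 in RPL4, with a median of 53 against 15 for all coding genes. The 10 members with the most events held 3754 of the 7872, or 47.7%. At least 200 events were found in 10 members, 12.7% of 79, where 3.51% of all protein-coding genes reached that count. Without snoRNA events the number was 7. A significant cluster in the pooled data, as the authors called them, overlapped 49 members (62.0%) against 11.3% of all protein-coding genes. Outside snoRNAs it was 38 members (48.1%) against 11.2%. Of the 111 pooled clusters outside snoRNAs, 93 had their summit in coding sequence, 9 in a 5′ UTR and 3 in a 3′ UTR. Of all 161 pooled clusters, 58 were found in none of the single libraries and 5 in each of the 4. These 5 overlapped SNORD24, SNORD18B, SNORD36C, SNORD21 and SNORD14B, so no cluster outside snoRNAs was found in every library.

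**Figure D2:**
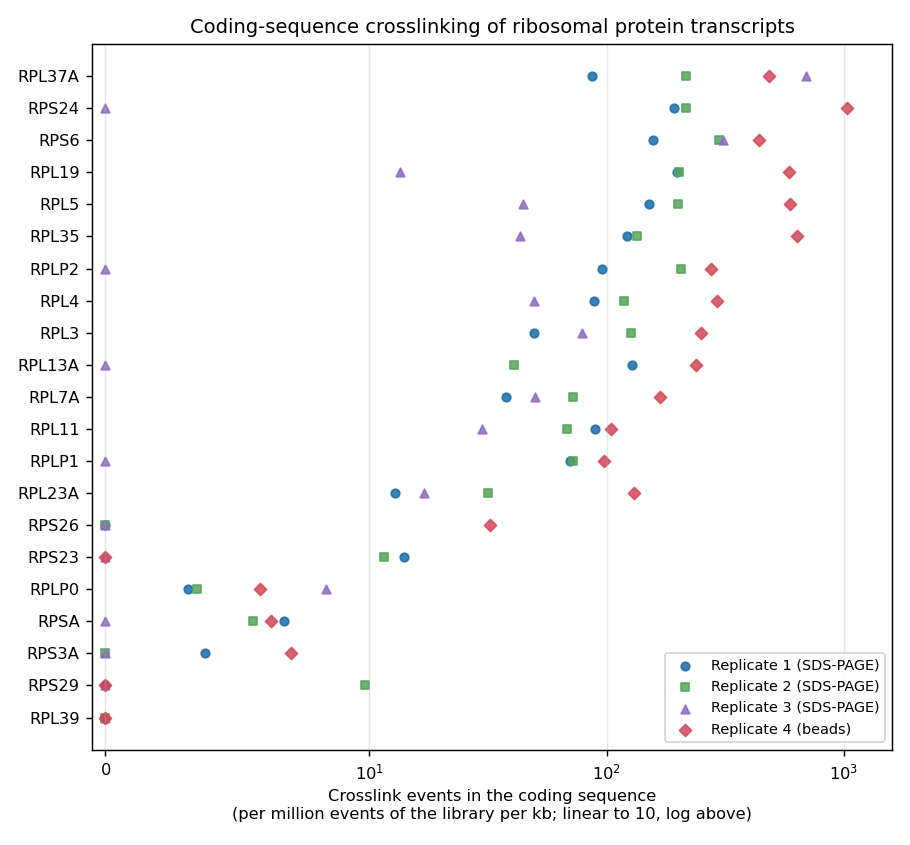
Events in the coding sequence in CPM per kb, for 21 members chosen by their event counts, their exonic density or their place in the stalk or the 5S particle; the axis is linear up to 10 and logarithmic above. Members range from RPL39, at 0 in every library, to RPS24 and RPL37A, and replicate 3 is often at 0. Only 12.8% of RPL39 exonic positions have a next 30 nt found nowhere else in the genome.

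Among small-subunit mRNAs, RPS24 and RPS6 led. RPS24, a protein of the small subunit whose mutation causes Diamond-Blackfan anaemia, had the highest exonic density of all members, 404 events per kb. Its coding sequence held 192, 216, 0 and 1028 CPM per kb in replicates 1 to 4, so replicate 3 stood apart at 0 while the beads library was highest. RPS6, the substrate of S6 kinases, was steadier, with 156, 299, 309 and 440 CPM per kb. It had 297 events in all, 262 of them in coding sequence, and hosts no snoRNA. RPS6 was thus dense in every library.

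By exonic density, RPS26, RPS3A, RPS29 and RPS23 stood at the other end of the small subunit. RPS26, which binds near the mRNA exit, had 1, 0, 0 and 2 events. RPS3A had 2 events in its coding sequence, but only 4.0% of its exonic positions have a next 30 nt found nowhere else in the genome. RPS23, which lies at the decoding centre, had 5 coding events. Its canonical transcript of 3252 nt, with 429 nt of coding sequence, lowers its exonic density. It held 11.7 coding events per kb, against 5.80 in RPS26, 2.53 in RPS3A and 5.95 in RPS29.

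Among large-subunit mRNAs, RPL5 was the highest by exonic density, with 268 events per kb. RPL5 and RPL11 bind 5S rRNA together and restrain MDM2 when ribosome assembly fails. The RPL5 coding sequence held 151, 200, 44.6 and 594 CPM per kb and that of RPL11 89.7, 68.1, 29.8 and 104. RPL11 lay below RPL5 in each library, on 50 against 253 coding events. RPL19 held 199, 202, 13.5 and 587 CPM per kb of coding sequence, with 1 event in replicate 3, and RPL35 held 122, 134, 43.1 and 634. RPL37A held 86.8, 216, 692 and 484 and was the densest by the mean, 370 ± 271, with its highest value in the shallowest library. This rank rested on replicate 3, since RPS24, with a mean of 359 ± 456, lay above RPL37A in replicates 1, 2 and 4. In replicate 3 the RPL37A coding clusters at chr2:216499271-216499395 and chr2:216499943-216499991 held 12 events each. RPL39 had no event in its coding sequence in any of the 4 libraries. That sequence is only 153 nt long, and only 12.8% of RPL39 exonic positions have a next 30 nt found nowhere else in the genome.

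The stalk that recruits elongation factors is built from RPLP0, RPLP1 and RPLP2, and their mRNAs differed. The RPLP2 coding sequence held 95.4, 206, 0 and 274 CPM per kb, RPLP1 held 70.0, 72.5, 0 and 97.7, and RPLP0 held 3.14, 3.48, 8.37 and 5.85. RPLP0 lay below the others in replicates 1, 2 and 4 and was the one with an event in replicate 3. Only 20.8% of RPLP0 positions have a unique next 30 nt, against 78.8% in RPLP2 and 73.4% in RPLP1. RPSA, the laminin-receptor protein of the small subunit, had 6 coding events, while 125 of its 141 events lay in the snoRNAs SNORA6 and SNORA62. Of the ribosome components whose names the rule did not take, RACK1, a scaffold protein on the small subunit, had 265 events, and the ubiquitin-like fusion FAU had 27.

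Because ribosomal protein genes have many processed pseudogenes, reads that fit several places were lost when the authors kept uniquely mapping reads. A next 30 nt found nowhere else in the genome was present at 62.3% of members' exonic positions, against 89.7% for mitochondrial ribosomal proteins and 71% for the translation factor list. In 39 members it was present at fewer than 50% of positions. Across the 77 members the Spearman correlation between exonic events and this share was -0.02, a description over genes that share the same libraries. The 1585 ribosomal protein pseudogenes outside chromosome Y held 521 events in all, at most 16 in one of them, RPS18P9.

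Embedded snoRNAs held the largest share of events after coding sequence. The members hold 58 snoRNAs in 28 host genes, and 57 of them had at least 1 event. Together they held 409.6 ± 296 CPM per kb (230, 266, 291 and 852 in replicates 1 to 4), whereas the other intron sequence of the same hosts held 6.74 ± 4.49 (5.71, 4.90, 3.09 and 13.3). The snoRNA value was higher in every library. The log2 ratio was 5.91 ± 0.50 (SD, n = 4, exact sign-flip p = 0.13), or 60-fold. With 5 nt on either side counted to the snoRNA it was 7.08 ± 1.02, since many of the remaining intron events lay at the snoRNA ends.

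Box C/D snoRNAs carried most of this signal. The 40 box C/D snoRNAs held 2001 events (622 per kb) and the 18 box H/ACA snoRNAs 408 (168 per kb). SNORD24, in intron 2 of RPL7A, had 312 events, or 135, 205, 215 and 646 CPM in replicates 1 to 4. SNORD18B in RPL4 had 152 events, or 98.8, 44.6, 87.5 and 451 CPM, and SNORD36C in RPL7A had 120. SNORD34 in RPL13A had 118 and SNORD102 in RPL21 had 82. The beads library was the highest for each of these 5 snoRNAs. RPL7A, RPL4 and RPL13A owed 468 of 617, 373 of 639 and 247 of 353 events to their 4 snoRNAs each, so their gene totals mostly did not describe their mRNAs.

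Events in box C/D snoRNAs lay toward the 5′ end in part. Counting up to 5 nt before the snoRNA, 30.8% of them fell there or in its first 10 nt, against 5.45% in box H/ACA snoRNAs. Of the 2353 box C/D events counted in this way, 352 lay before the snoRNA. Events were placed on the nucleotide before the read, so a read from the snoRNA's first nucleotide also counts there. Whether such reads ended at a crosslink was not tested. Box C/D snoRNAs are also shorter (40 over 3215 nt, against 18 over 2424 nt), so this window covers a larger share of each. SNORD102 had 68 of its 82 events in the first 10 nt, while SNORD24 had 9 of 312 there. Compared with snoRNAs inside other coding genes, those of ribosomal protein genes were denser in each library. Box C/D snoRNAs held 613 ± 457 CPM per kb in members and 280 ± 207 in 85 snoRNAs of other hosts, a log2 ratio of 1.13 ± 0.26 (n = 4, exact sign-flip p = 0.13). Box H/ACA snoRNAs held 140 ± 88.5 and 54.9 ± 20.8 in 98 of other hosts, a log2 ratio of 1.22 ± 0.57 (exact sign-flip p = 0.13). The snoRNAs' own abundance was not measured.

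Introns of the canonical transcripts outside snoRNAs held few events. In the 28 hosts they were denser than in the 51 members without a snoRNA, 6.74 ± 4.49 against 1.5 ± 0.68 CPM per kb, a log2 ratio of 2.10 ± 0.59 (n = 4, exact sign-flip p = 0.13). When 50 nt on either side of each snoRNA were also removed the ratio was 0.65 ± 0.31, so much of this difference lay in the flanks. Of members with 50 or more events, RPL31 had the highest intron share (43.4% of 159 events), followed by RPL37A (42.0% of 245) and RPL27A (40.7% of 86).

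The sequence around the events was then examined for GAAGA, which the study found enriched in its PR100-FLAG data. The search of the study ran over 5 nt upstream to 30 nt downstream of the sites, the range used here. An excess near the motif therefore follows in part from how the motif was chosen and is no independent check of it. In the members' exons 34.1%, 29.9%, 26.4% and 38% of events in replicates 1 to 4 had a GANGA starting between 5 nt upstream and 30 nt downstream, against 13.8% of all exonic positions. The difference was 18.3 ± 5.06 points (n = 4, exact sign-flip p = 0.13). For GAAGA alone it was 26.7% ± 3.58 of events against 8.47% of positions. Part of this came with the coding sequence, which is richer in the motif. Within coding sequence 33.8% ± 5.49 of events and 22.6% of positions were near GANGA.

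Weighting the positions of each gene by its events, the excess was 12.4 ± 4.45 points in members and 7.62 ± 1.19 in other coding genes. The members' excess was larger by 7.39, 1.59, 1.64 and 8.59 points (mean 4.8 ± 3.71, exact sign-flip p = 0.13). It was 1.6 ± 1.82 with the motif start within 15 nt on either side and 3.81 ± 3.63 with each position counted once (exact sign-flip p = 0.25 for both). In coding sequence alone the mean difference was 1.58 ± 5.25 points (exact sign-flip p = 0.75), so a stronger preference in members was not shown there. Members with a GAAGA in the coding sequence, 63 of 77, held 80.6 ± 53.9 CPM per kb there, and the 14 without one held 38.7 ± 24.9. The 6 members without any GANGA held 26.4 ± 19.5. RPL23A had 10 GAAGA and 49.1 coding events per kb, and RPL19 had 6 and 296.

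The motif lay downstream of the crosslink more than upstream, and the range in which the study found it also ran mostly downstream. On average 5.02% ± 0.74 of members' coding events had a GAAGA over a given position 1 to 30 nt downstream, against 2.86% ± 0.26 over one 1 to 30 nt upstream. In other coding genes the values were 3.67% ± 0.45 and 2.86% ± 0.20. The members' peak of 7.86% ± 3.81 at 8 nt rested in part on replicate 3, with 13.5% there and 5.31% to 6.66% in the other libraries.

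Ribosomal proteins are rich in lysine and arginine, and this showed in the codons next to the events. In the 10 codons after an event 15.8% ± 1.53 coded for lysine, 11.9% ± 1.36 for arginine and 10.0% ± 0.88 for acidic residues. The same genes' positions, weighted by events, gave 14.2%, 9.80% and 8.96%, so the differences were 1.52 ± 1.31, 2.13 ± 1.05 and 1.08 ± 0.58 points (n = 4, exact sign-flip p = 0.13 each). In other coding genes the acidic share was 15.3% ± 0.69 against 13.4% of positions, and the lysine share 7.35% ± 0.59 against 6.80%. Purines made up 58.1% ± 1.70 of the next 30 nt against 56.0% of positions. The crosslinked nucleotide was U in 28.3% ± 7.64 of coding events against 19.5% of positions, with 39.6% in replicate 3 and 23.5% to 26% in the others. It was G in 19.6% ± 1.03 against 27.3%. Other coding genes were similar, with U at 29.3% ± 3.65 against 21.0% and G at 20.1% ± 1.99 against 26.6%. Their purine share was 55.6% ± 1.13 against 53.9%, so these differences were not particular to the members.

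Along the coding sequence, 29.3% ± 2.55 of events lay in the first of 3 equal parts, 31.1% ± 3.02 in the middle one and 39.6% ± 2.80 in the last. The first minus the last was -10.4 ± 4.42 points and negative in 4 of 4 libraries (exact sign-flip p = 0.13). As a median over only those members that passed a minimum of coding events, it was -4.04 ± 3.71 (exact sign-flip p = 0.25).

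The order of members was similar between replicates 1, 2 and 4 and less so between these and replicate 3. Over 77 members the Spearman correlation of CPM ran from 0.63 to 0.88, as a description over genes of the same cells. The 3 pairs with replicate 3 were the lowest, at 0.63 to 0.69, and 31 members had no event in that library. These totals include snoRNA events. For exonic CPM per kb the correlation was 0.49 to 0.55 in the pairs with replicate 3 and 0.71 to 0.85 in the others.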

How the data were processed

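Crosslinked positions and significant clusters of 4 PR100-FLAG iiCLIP libraries of HEK293T cells, and of the pool of the 4, were used. Per the study's methods and the labels, the authors removed barcodes, collapsed PCR duplicates by random barcode, mapped reads to GRCh38 with STAR, kept uniquely mapping reads and called clusters with iCount. The deposited values are counts of unique cDNAs per position or cluster, not normalized. They cover counting error only as far as barcodes mark separate molecules.

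Positions were assigned here to GENCODE 44 genes on the same strand (Python 3.11.15 with numpy 2.4.6, pandas 2.3.3 and pysam 0.24.0) in the order snoRNA, coding sequence, UTR, non-coding exon and intron over all transcripts. Repeated models of 1 snoRNA were counted once. Densities, intron values, motifs and codons used the canonical transcript. Each comparison was made within a library and tested over the 4 libraries with an exact two-sided sign-flip permutation test. No sequence from chromosome 8 is printed. Named members were the 10 with the most events, the 5 highest and 5 lowest by exonic density, the 5 with the most snoRNA events, the 5 with the highest intron share at 50 or more events, those with a cluster outside snoRNAs, the stalk proteins, RPSA, RPL5 and RPL11. RACK1 and FAU were set beside them. Some genes that this rule names are not reported here singly, though sums over the members include them. RPL5 was kept although the letters of the rule on paralog names would drop it, which leaves 81 genes. Uniqueness was the share of positions whose next 30 or 50 nt, taken along the spliced transcript, occur nowhere else in the genome. A stretch across an exon junction therefore counted as unique if the genome did not hold it, and the last stretch stood in for positions nearer the transcript end. The functions were tested on simulated data. Members and lists were chosen with earlier results of these data known. Comparisons of snoRNA hosts, codons, crosslinked nucleotides and members with and without a motif were added after seeing the data. Alternatives left out each library, counted positions once, and changed the regions, thresholds, windows and members.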

Additional observations from a re-analysis of the deposited data

Results flagged for a closer look

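Of 73 quantities looked at over the 4 libraries, 10 had 1 library far from the other 3, the gap being over 0.83 of the whole range. Chance alone gives this for about 1 in 20 groups of values, and these quantities are not independent, since snoRNA events are part of their host's count. In 8 of the 10 the beads library, replicate 4, was high. The members' share of the library was 1.33% there and at most 0.540% elsewhere. RPL4 stood at 1581 CPM against 191 to 367, RPL7A at 1319 against 344 to 374, RPL13A at 746 against 192 to 231 and RPL23A at 395 against 119 to 150. Among snoRNAs, SNORD24 stood at 646 CPM against 135 to 215, SNORD18B at 451 against 44.6 to 98.8 and SNORD18A at 200.4 against 31.8 to 41.3. Box C/D snoRNAs of other coding genes were also highest in the beads library, at 589 CPM per kb against 161 to 198. Those of the members stood at 1295 against 347 to 450, so a high beads value was not particular to the members' snoRNAs. The part of the purification was not tested, with 1 library of its kind.

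The other 2 did not involve the beads library. RPL18, a large-subunit protein, stood at 95.5 CPM in replicate 3 against 33.4 to 41.9, on 12 events. RPS3A stood at 12 CPM in replicate 1 against 38 to 39.8, on 4 events. Counts this low leave wide counting error.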

How the results depend on the processing

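Of 124 recomputed values, 119 kept their direction or stayed within 1.5 times the count reported, 4 moved and 1 reversed. The reversal was the log2 density of large over small subunit, 0.51 over coding sequence alone (chosen after seeing the data). It was -0.50 and -0.42 with positions unique at 30 and 50 nt. The 10 members with at least 200 events became 26 at a minimum of 100, 3 at 400 and 3 where each position was counted once, and 4 to 10 when 1 library was left out, the lowest without replicate 2. Without the beads library the members' share of the library was 0.492% and the mature share difference 13.3 points. The ratio to translation factors ran down to 0.002, and the intron ratio of hosts to 0.65. No p could pass 0.05, so none of this speaks for stability. Medians over genes gave no value for the 4 density ratios, since a median was 0 in at least 1 library. No paired analysis was possible because the libraries form 1 group. Depth limits single members most in replicate 3, where 31 of 77 had no event.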
